A study of Schizosaccharomyces pombe with 4 samples.

Results

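Acetyl-CoA is the building block from which fatty acid synthase makes fatty acids, and 7 genes for enzymes that supply it are described here, of 5143 genes in the table for 24°C. The members were chosen by name: acl1 (SPBC1703.07) and acl2 (SPAC22A12.16) for ATP citrate lyase, pda1 (SPAC26F1.03), pdb1 (SPBC30D10.13c), lat1 (SPCC794.07) and dld1 (SPAC1002.09c) for the pyruvate dehydrogenase complex, and acs1 (SPCC191.02c) for acetyl-CoA ligase. All 7 are in the 24°C table, and 0 of the 7 are among the 285 genes of the 30°C table.

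The samples were poly(A) RNA of Schizosaccharomyces pombe growing exponentially in the rich medium YES, with 1 library per strain and temperature, 4 libraries in all. One strain was wild type, and in the other, called fas S.j., the coding sequences of fas1 and fas2, the fatty acid synthase subunits, had been exchanged for those of Schizosaccharomyces japonicus between the native flanking regions, with a kanMX6 cassette at fas1 and a hygR cassette at fas2. Among the study's strains are a prototrophic h- wild type and 2 exchange strains, an h+ prototroph and an h- strain with ade6, ura4 and leu1 markers. Which of them were sequenced is not given in the sources used here, so a difference in mating type or markers cannot be told apart from the exchange. With no second library of any kind, no value below has a replicate error, no test between strains was made, and a difference between cultures cannot be told apart from a difference between strains.

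Pyruvate from glycolysis is turned into acetyl-CoA inside mitochondria by the pyruvate dehydrogenase complex. That acetyl-CoA does not cross the inner membrane, so it leaves as citrate, which ATP citrate lyase splits in the cytosol into acetyl-CoA and oxaloacetate. Acetyl-CoA ligase makes acetyl-CoA from acetate and ATP, the main cytosolic route in the budding yeast Saccharomyces cerevisiae, which lacks ATP citrate lyase.

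The values are FPKM (reads scaled to gene length and to the mapped reads of the library), so levels of different genes can be set side by side within a library. A change is log2 of (FPKM + 1 in fas S.j.) over (FPKM + 1 in wild type), and a change above 0.8 or below -0.8, the study's fold limit, is called past the limit. The exchanged genes checked the labels: in fas S.j., fas1 was at 7.35 FPKM against 301 in wild type at 24°C, and fas2 at 0.320 against 336. At 30°C the levels were 16.6 against 344 FPKM for fas1 and 0.832 against 347 for fas2. The tables hold no read counts. From the steps in the lowest FPKM values, a read was worth about 0.0755 FPKM times kilobases in wild type against 0.097 in fas S.j., which puts the fas S.j. library at about 0.778 of the depth of the wild-type library.

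At 24°C the genes for all 3 enzymes were well expressed in both strains. Their ratios of fas S.j. to wild type ran from 0.94 for lat1 to 1.42 for dld1. Of the 7 genes, 6 were higher in fas S.j. and lat1 was lower, with changes from -0.09 for lat1 to 0.51 for dld1 and a median of 0.17. None of the 7 was past the limit in either direction. Of the 4943 genes averaging 1 FPKM or more, 310 (6.27%) were, 207 of them higher (4.19%) and 103 lower (2.08%). A count of 0 among 7 genes is near that share. A change above 0 was found for 49.3% of those 4943 genes. Their median change was -0.0037, and 5% of changes were below -0.46 and 5% above 0.71, so each of the 7 changes lay between these bounds.

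**Figure D1:**
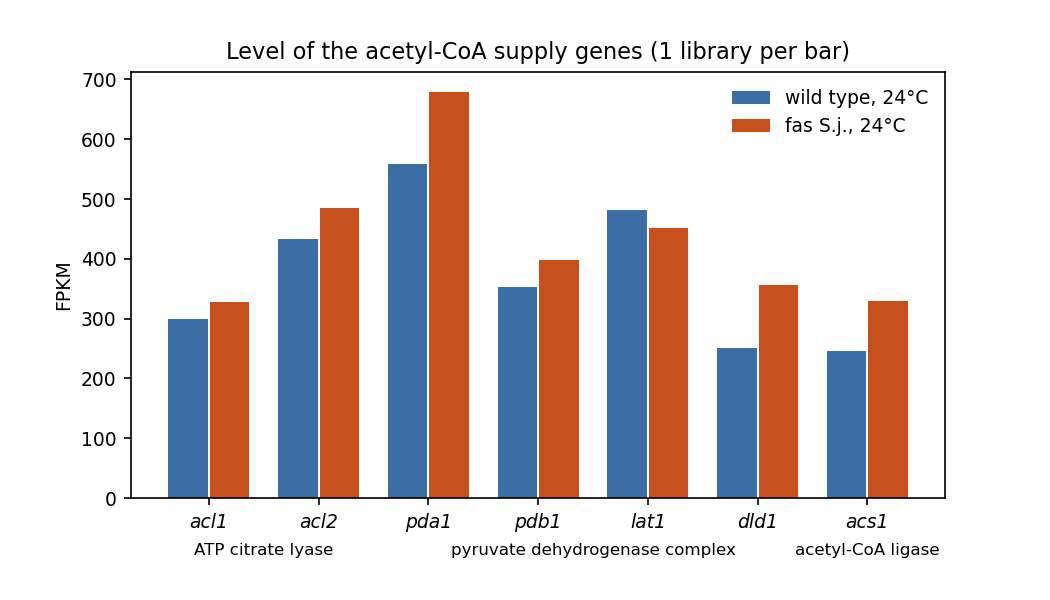
FPKM (vertical axis, from 0) of the 7 acetyl-CoA supply genes at 24°C in wild type (blue) and fas S.j. (orange), 1 library per bar and therefore no error bars. In fas S.j. 6 of the 7 bars are higher, from 327 to 679 FPKM over these 6 genes, and that of lat1 is lower, 451 against 481 FPKM.

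The order of the levels was similar in the libraries at 24°C. In wild type it ran pda1, lat1, acl2, pdb1, acl1, dld1 and acs1, from 559 down to 247 FPKM, a span of 2.27-fold. In fas S.j. it ran pda1, acl2, lat1, pdb1, dld1, acs1 and acl1, from 679 down to 327 FPKM, a span of 2.08-fold. Neighbours in either order have no spread to be compared with. The closest neighbours were dld1 and acs1 in wild type, at 250 and 247 FPKM, and acs1 and acl1 in fas S.j., at 329 and 327 FPKM.

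ATP citrate lyase of many fungi is made of separate subunits, which correspond to parts of the longer chain of the animal enzyme. In the genome ASM294v3, acl1 occupies chromosome II from 2927993 to 2931207 on the plus strand, has 3 exons and encodes 615 residues. Its level was 299 FPKM in wild type against 327 FPKM in fas S.j. (log2 change 0.13). The gene acl2 lies on chromosome I from 1186276 to 1187928 on the plus strand, has 2 exons and encodes 492 residues. Its level was 433 FPKM in wild type against 486 FPKM in fas S.j. (log2 change 0.16).

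The subunit genes of ATP citrate lyase stood in a similar proportion in both libraries: the level of acl2 was 1.45 times that of acl1 in wild type and 1.485 times in fas S.j. Their changes differed by 0.034 on the log2 scale. Changes at least as large in either direction as that of acl1 were found for 60.6% of the 4943 genes, and as large as that of acl2 for 51.8%.

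In the pyruvate dehydrogenase complex, Pda1 and Pdb1 are the alpha and beta subunits of the E1 component, which removes carbon dioxide from pyruvate with the help of thiamine diphosphate. The gene pda1 lies on chromosome I from 5179652 to 5181240 on the minus strand and encodes 409 residues. It was the highest of the 7 genes in both libraries, 559 FPKM in wild type against 679 FPKM in fas S.j. (log2 change 0.28). The gene pdb1 lies on chromosome II from 3070467 to 3072018 on the plus strand and encodes 366 residues. Its level was 353 FPKM in wild type against 398 FPKM in fas S.j. (log2 change 0.17). The alpha subunit gene stood at 1.59 times the level of the beta subunit gene in wild type and at 1.71 times in fas S.j.

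Lat1 is the E2 component, which carries the acetyl group on its lipoate arm to CoA. Its gene lies on chromosome III from 262717 to 264770 on the plus strand, has 3 exons and encodes 483 residues. The level of lat1 was 481 FPKM in wild type against 451 FPKM in fas S.j. (log2 change -0.09), and lat1 was the member with the smallest change. Changes as large in either direction were found for 70.4% of the 4943 genes.

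Dld1 is the E3 component, dihydrolipoyl dehydrogenase, which reoxidizes the lipoate arm. Its gene lies on chromosome I from 1811408 to 1813740 on the minus strand and encodes 511 residues. The level of dld1 was 250 FPKM in wild type against 356 FPKM in fas S.j., a ratio of 1.42 and a change of 0.51. A change as large in either direction was found for 625 of the 4943 genes (12.6%), and for 12.1% of the 1115 genes averaging 100 FPKM or more. Within the complex, the proportion that differed most between the libraries was that of dld1 to lat1, its genes with the highest and lowest change. The gene dld1 stood at 0.520 times the level of lat1 in wild type and at 0.7895 times in fas S.j., a difference between their changes of 0.60. Among the other pairs, the difference was 0.11 for pda1 against pdb1, -0.27 for lat1 against pdb1 and -0.23 for pda1 against dld1. It was not computed for pda1 with lat1, whose changes were 0.28 and -0.09, or for dld1 with pdb1, at 0.51 and 0.17. The changes in each of these uncomputed pairs lie farther apart than those of the pairs in the sentence before. There is no spread to set these differences against.

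Acs1, the acetyl-CoA ligase, is encoded on chromosome III from 1708234 to 1711217 on the minus strand and has 662 residues. The authors' locus for acs1 has the length of its coding sequence, 1989 bases, and not that of the annotated transcript, 2984 bases. The level of acs1 was 247 FPKM in wild type against 329 FPKM in fas S.j., a ratio of 1.33 and a change of 0.41. A change as large in either direction was found for 858 of the 4943 genes (17.4%). In wild type acl1 stood at 1.21 times the level of acs1, and in fas S.j. the levels were nearly equal, at 0.994 times.

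**Figure D2:**
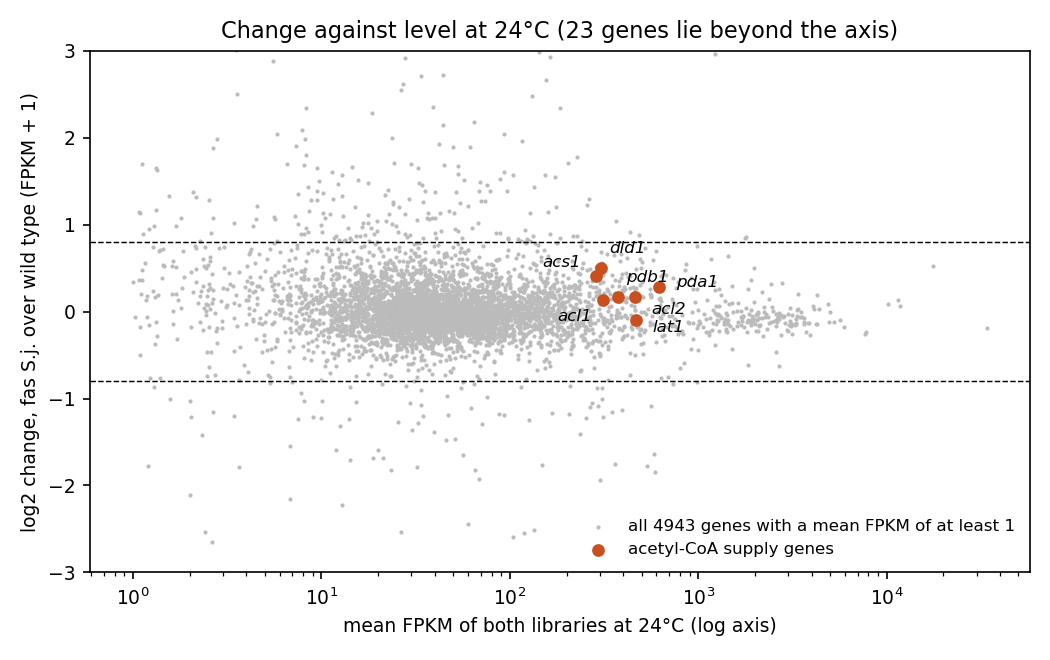
Change at 24°C (vertical axis, log2 of fas S.j. over wild type on FPKM + 1) against the mean FPKM of both libraries (horizontal log axis), with 1 grey point for each of the 4943 genes, the 7 members in orange and dashed lines at 0.8 and -0.8. The members lie between -0.09 and 0.51, all within the dashed lines, and 23 genes lie beyond the vertical axis.

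For the 3 members alone in their locus, the steps give an approximate number of reads. These were about 7000 and 6200 reads of pdb1 in wild type and fas S.j., about 12000 and 8800 of lat1, and about 5800 and 6100 of acs1. The 95% intervals for counting error alone were 0.12 to 0.22 for the change of pdb1, -0.13 to -0.05 for lat1 and 0.36 to 0.47 for acs1. Counting error was thus smaller than these changes, but it leaves out the variation between cultures and library preparations, which was not measured. The intervals also take the fitted steps as exact, and the lengths behind the read numbers were those of the locus, introns included.

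The other 4 members share a locus with genes whose transcripts overlap or adjoin theirs, so reads may have been divided between them. Libraries were strand-specific, but whether strand was used in counting is not given in the sources used here. The gene acl2 lies wholly inside SPAC22A12.17c, annotated as a dehydrogenase, on the opposite strand. That gene was at 4.11 FPKM in wild type against 12.8 FPKM in fas S.j. (log2 change 1.44), and its level was 0.948% and 2.64% of that of acl2. Over 53.6% of its length, acl1 overlaps fau1, for 5-formyltetrahydrofolate cyclo-ligase, on the opposite strand, with 9.45 and 8.60 FPKM.

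The 3′ end of pda1 overlaps etr1 on the opposite strand by 85 bases. Etr1 is the enoyl reductase of mitochondrial fatty acid synthesis, the pathway that makes the precursor of lipoate, and its gene was at 34.7 FPKM in wild type against 51.5 in fas S.j. (log2 change 0.56). On the same strand, pnn1 adjoins pda1 with 15.4 and 16.4 FPKM, and sgt1 adjoins dld1 with 22.7 and 22.9 FPKM. Each of these neighbours was at less than 10% of the level of its member in either library. None of the 7 coding sequences had a near-identical copy elsewhere in the genome.

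**Figure D3:**
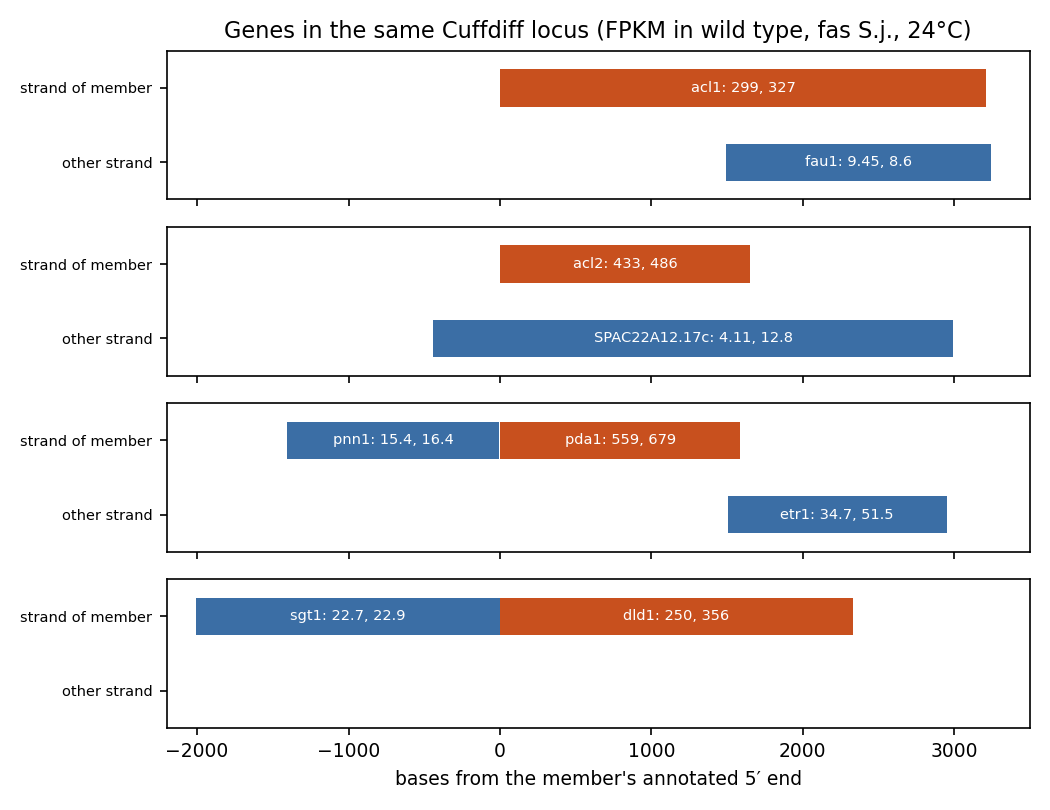
Members that share a locus (orange) and their neighbours (blue), drawn to scale against the distance in bases from the member's annotated 5′ end, in the member's direction; the numbers after each name are FPKM in wild type and fas S.j. at 24°C. The gene acl2 lies inside SPAC22A12.17c on the other strand, while sgt1 and pnn1 adjoin dld1 and pda1.

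The bases upstream of the members were searched for 2 motifs, in the 250 bases before each annotated 5′ end and on both strands. CCAAT is bound by the Php complex, a regulator of genes of respiration in fission yeast, and TGACGT is the core of the sites of the stress regulator Atf1. CCAAT was found upstream of lat1, dld1 and acs1, 3 of the 7 members, against 35.4% of 5105 genes. TGACGT was found upstream of 0 of the 7, against 5.56% of genes. Both counts are near the share over all genes. The windows around each CCAAT are shown from the RefSeq genome ASM294v3. Each is read 5′ to 3′ in the direction of its gene, with CCAAT or its reverse complement ATTGG in capitals.
lat1, chrIII:262504-262533, plus strand: gagaaattgaaaATTGGaaactttatgctt
dld1, chrI:1813891-1813920, minus strand: ttgtacggagggCCAATatcaactttgctc
acs1, chrIII:1711438-1711467, minus strand: gatATTGGtatcaaatccagggtaatcgac
acs1, chrIII:1711352-1711381, minus strand: ttatttacttttCCAATatcgcatggtcac

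The motif lies 201 bases before the 5′ end of lat1, 168 before that of dld1, inside the annotated gene sgt1, and 247 and 152 before that of acs1, the former inside the annotated gene SPCC191.04c. Members with the motif had changes of -0.09, 0.51 and 0.41, and those without it, pda1, pdb1, acl1 and acl2, from 0.13 to 0.28. With a count near the share over all genes, no link between motif and change was read from these values, and none was tested. A match is a description of these letters, and binding was not measured.

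Genes that act on the pyruvate dehydrogenase complex showed small changes at 24°C. Of 4 such genes, 2 were higher and 2 lower, 0 were past the limit, and their median change was 0.05 against -0.0037 for all genes. The gene pdx1, for the subunit that docks E3 to the complex, was at 108 FPKM in wild type against 121 in fas S.j. The phosphatase gene SPAC10F6.17c was at 44.4 and 49.6 FPKM. The gene of the inhibitory kinase, pkp1, was at 45.9 and 41.2 FPKM (log2 change -0.16).

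Genes picked for lipoate by annotation and genes of the other complexes that use Dld1 were lower in fas S.j., unlike dld1 itself. Outside that list, etr1, of the pathway that makes the precursor of lipoate, was higher (log2 change 0.56). All 4 genes outside the members whose annotation names lipoate or a lipoyl group were lower, with a median change of -0.20. Of these, 1 was past the limit, against 6.27% of all genes averaging 1 FPKM or more. That gene was lip5, for lipoate synthase, at 45.7 FPKM in wild type against 7.04 in fas S.j. at 24°C (log2 change -2.54). In the 30°C table, which holds lower levels alone, lip5 is listed at 7.27 and 4.51 FPKM (log2 change -0.59). The wild-type level of lip5 was thus far lower at 30°C than at 24°C, and the larger change at 24°C rests on 1 high wild-type value. Why the wild-type libraries differ was not tested. However, 97.9% of lip5 is overlapped on the opposite strand by SPBC8D2.16c, which shares its locus and was at 32.1 and 40.8 FPKM at 24°C, and the part of reads divided between them was not tested. The ligase gene aim22 went from 27.4 to 24.7 FPKM. Changes of the lipoate genes other than lip5 lay between -0.20 and -0.14. Over all genes averaging 1 FPKM or more, 51.8% changed by at least 0.16 in either direction.

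All 5 genes of the oxoglutarate dehydrogenase and glycine cleavage complexes, which share the E3 component, were lower, from -0.65 to -0.08, with a median of -0.27 and 0 past the limit. The gene gcv2 was at 340 FPKM in wild type against 216 in fas S.j., gcv1 at 242 and 184, and gcv3, for the lipoate-bearing H protein, at 457 and 379. The gene kgd2, which also counts among the lipoate genes by its annotation, was at 157 and 137 FPKM. Of all 4943 genes, 2505 were lower.

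Before and beside pyruvate dehydrogenase, the levels in fas S.j. went either way. Of the 5 genes for pyruvate supply and mitochondrial use averaging 1 FPKM or more, 3 were higher and 2 lower, with a median of 0.18 and 0 past the limit. Over pyk1 and mae2, alone in their locus, the median was -0.12. Pyruvate kinase, pyk1, was at 3141 FPKM in wild type against 3622 in fas S.j., the malic enzyme gene mae2 at 1143 and 839, and the pyruvate carboxylase gene pyr1 at 381 and 377. On the route by which acetate, the substrate of Acs1, is made, the pyruvate decarboxylase gene pdc101 was at 3996 FPKM in wild type against 4576 in fas S.j. (log2 change 0.20). The aldehyde dehydrogenase gene atd1 was at 981 and 626 FPKM (log2 change -0.65), and the aldehyde dehydrogenase gene SPBC21C3.15c at 184 and 222. In the list of 10 genes picked by the words pyruvate decarboxylase and aldehyde dehydrogenase, 8 were higher and 2 lower, with a median of 0.23. Over all genes averaging 1 FPKM or more, 49.3% were higher and 6.27% past the limit, and in the list 1 was past it. That gene was fmd2, for a formaldehyde dehydrogenase that acts with glutathione and not on the route to acetate, at 12.6 FPKM in wild type against 27.1 FPKM in fas S.j. (log2 change 1.05). Without fmd2 and the other genes counted as outside that route, the median of the list was 0.19.

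Citrate, the substrate of ATP citrate lyase, is made by citrate synthase. Its gene cit1 was at 310 FPKM in wild type against 246 in fas S.j. at 24°C (log2 change -0.34). At 30°C, where only genes with lower levels are listed, it is listed with 207 and 141 FPKM (log2 change -0.55). The aconitase gene aco1 was at 316 and 365 FPKM at 24°C, and the homoaconitate hydratase gene lys2 at 204 and 230. Over all genes averaging 1 FPKM or more, 49.3% were higher and 6.27% were past the limit. Of the 7 genes picked for citrate and aconitate, 5 were higher and 2 lower, with a median of 0.17, and 1 was past the limit. The median was 0.05 without lys2 and the trans-aconitate methyltransferase genes SPAC25B8.09 and SPAC25B8.10, which act outside the supply of citrate, and 0.71 over the 3 genes alone in their locus, which are aco1 and those methyltransferase genes. The gene past the limit was SPAC25B8.10, at 58.8 FPKM in wild type against 111 FPKM in fas S.j. (log2 change 0.91).

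The 6 genes picked for other uses of acetyl-CoA had changes from 0.12 to 1.04, whereas cit1, whose product also uses acetyl-CoA, is counted with the citrate genes and was lower. The median of the 6 was 0.32 against 0.17 for the 7 supply genes, but over those alone in their locus, erg10, hcs1 and ach1, it was 0.13 against 0.17, the opposite order. Of the 6, 1 was past the limit, against 4.19% of all genes. That gene was cut6, for acetyl-CoA carboxylase, at 240 FPKM in wild type against 493 FPKM in fas S.j., and 1.57% of it is overlapped on the opposite strand by SPAC56E4.03. The homocitrate synthase gene lys4, at the start of lysine synthesis, was at 457 and 743 FPKM (log2 change 0.70). The genes erg10 and hcs1, at the start of sterol synthesis, were at 408 and 496 FPKM and at 390 and 425 FPKM. The difference between supply and use was not tested.

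**Figure D4:**
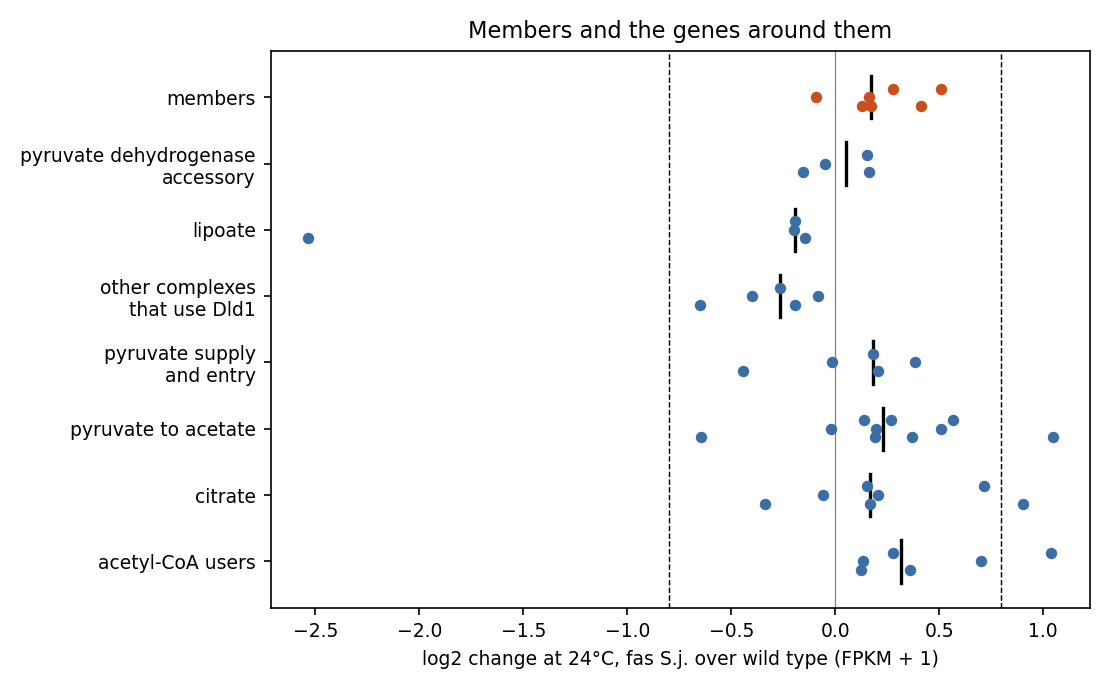
Change at 24°C (horizontal axis, log2 of fas S.j. over wild type on FPKM + 1) of the 7 members (orange) and of the genes around them (blue), 1 point per gene averaging 1 FPKM or more, with a black bar at each median and dashed lines at 0.8 and -0.8. The genes picked for lipoate by annotation and those for the other complexes that use Dld1 lie below 0, with lip5 at -2.54. The 6 genes picked as acetyl-CoA users lie above 0, with cut6 at 1.04, and cit1, plotted with the citrate genes, lies at -0.34.

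The genes most like the ATP citrate lyase pair over the 2 libraries at 24°C, by the distance of log2(FPKM + 1) from the mean of the pair, were knh4, rds1 and the asparagine tRNA ligase gene nrs1, at distances of 0.022, 0.046 and 0.050. Their levels were 365 and 399, 357 and 411, and 349 and 405 FPKM in wild type and fas S.j. Among the other members pdb1 was nearest, at 0.029, with 1 gene nearer. Each of acl1 and acl2 lay farther from their own mean, at 0.39, than many genes did, since likeness over 2 libraries is mostly likeness of level.

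The analysed table for 30°C holds 285 genes, each with a log2 ratio of FPKM (no pseudocount) of -0.50 or lower, and 0 of the 7 members are in it. Their levels at 30°C were not analysed here, and rises at that temperature were not either.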

How the data were processed

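Per the labels and the paper's methods, the authors mapped the reads on a Galaxy server, where TopHat and Cuffdiff are the tools named in the submitters' processing notes; versions, options and genome build are not given in the sources used here, and the paper and the labels differ on instrument and read length. The deposited FPKM values come in a separate Cuffdiff table per temperature, and strains were compared inside a table only. The tables also hold the authors' own fold changes, test statistics and p-values for 1 library against 1 library, and the 30°C table has unnamed trailing columns of identifiers and values; none was used.

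Changes were log2 ratios with a pseudocount of 1 FPKM, and all-gene values used genes averaging 1 FPKM or more, which all 7 members passed. At 24°C, 106 genes are listed at 0 in both libraries. The members and gene lists were chosen with earlier results of these data known. Lists were made by symbol and by product text. The text named the members, list genes past 0.8 or below -0.8, otherwise up to 3 genes of a list with the highest mean FPKM, genes sharing a locus with a member, fas1, fas2 and the 3 genes nearest to the ATP citrate lyase pair; SPBC8D2.16c and SPAC56E4.03, which share a locus with a named gene, and SPAC25B8.09 and ach1 were added after their values were seen. In ASM294v3, 5106 of 5143 identifiers matched, and 2348 of 2348 loci with 1 matched gene overlapped its annotation there. Depth steps used 55 genes for wild type and 46 for fas S.j. with 200 bases taken off the locus length, a choice made after the values were seen. The fit was loose: the mean cosine of the values over the step, which is 1 for a perfect fit, was 0.54 for wild type and 0.62 for fas S.j. Copies were sought with blastn 2.17.0 (identity of 90% or more across 50% or more of the coding sequence). Python 3.11.15, numpy 2.4.6, pandas 2.3.3 and matplotlib 3.10.9 were used, and the calculation of changes was tested on simulated data.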

Additional observations from a re-analysis of the deposited data

How the results depend on the processing

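The alternatives were a pseudocount of 0.1, centring on the 4543 genes averaging 10 FPKM or more (median -0.011), a fold limit of 1, a low-level filter at 10 FPKM or no filter, only genes alone in their locus and, chosen after seeing the data, lists without genes that act outside the named route. Over a pseudocount of 0.1 and centring, the 14 values of the members moved by at most 0.011 and 0 changed sign. Of 72 values and counts recomputed, 69 stayed within 0.25 on the log2 scale or 1.5 times, 0 reversed a change past the limit, and 3 moved further. With only genes alone in their locus, the median of the pyruvate supply genes was -0.12 and that of the citrate genes 0.71 over 3 genes, of which the methyltransferase genes are outside the route; without the genes outside the route the citrate median was 0.05. With only genes alone in their locus the median of the acetyl-CoA users was 0.13, below the 0.17 of the members. With a pseudocount of 0.1 the change of fas2 was -9.64. No paired analysis was possible because the labels carry no replicate numbers and each condition has 1 library.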
